A study of Mus musculus with 6 samples.

Results

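The mitosis and G2/M genes described here were 47 genes chosen by name for their work in cell division, found in the deposited transcript table by their gene symbol. For each, the transcript with the highest mean level stood for the gene, which gave 47 of the 23276 genes with a symbol. The table was made from whole kidneys of mice at postnatal day 22 by the labels (the study's text gives a slightly younger age), with 3 kidneys of the genotype KspCre; Pkd1 F/RC (SKO) and 3 in which that genotype was joined by miR17~92 F/F (DKO). All 6 kidneys therefore carried a floxed and a hypomorphic RC allele of Pkd1, the gene mutated in most autosomal dominant polycystic kidney disease, together with Ksp/Cre, whose promoter is active in renal tubule cells, so that the floxed alleles are recombined there while the RC allele is carried by every cell. The DKO kidneys also carried floxed miR-17~92, the cluster that encodes the microRNAs miR-17, miR-18a, miR-19a, miR-20a, miR-19b and miR-92a. The study set these groups side by side to ask how loss of the cluster alters the cystic kidney.

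The level used here was the authors' mean over all 6 kidneys, as log2 CPM (read counts of a transcript scaled to the size of the library), so it pools the genotypes. It carries no value for a single kidney, no standard deviation and no genotype difference. The comparison of DKO with SKO is not analysed here, no test was made, and every difference below is between genes, not between kidneys. The depth of each kidney is unknown, and the labels could not be checked against the targeted genes kidney by kidney.

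Cells enter mitosis when cyclin B and the kinase CDK1 become active together, after which chromosomes condense, attach to the spindle through kinetochores and are held by the spindle checkpoint until all are attached. The anaphase promoting complex then targets securin and cyclin B for destruction, sister chromatids part, and the central spindle guides cytokinesis. Many of these genes are transcribed late in the cycle through a CHR element (cell cycle genes homology region) bound by the MuvB complex, which represses them as DREAM in resting cells and activates them with B-MYB and FOXM1 in dividing cells. Dividing tubule epithelium is a known feature of growing cysts.

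The promoters below are shown because the CHR and the CCAAT box, the element bound by NF-Y, were the promoter letters most widely shared by the members among those searched. Sequences are from RefSeq on GRCm38.p6, written 5′ to 3′ along the gene. In the first pair, capitals mark a tandem in which GCGG, the core of the cell cycle dependent element, stands 4 bases before TTTGAA. The Cdk1 stretch is chr10:69352886-69352985 on the minus strand and the Cenpf stretch is chr1:189688043-189688142 on the minus strand.
Cdk1: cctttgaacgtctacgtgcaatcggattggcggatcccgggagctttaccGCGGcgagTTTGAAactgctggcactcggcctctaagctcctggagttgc
Cenpf: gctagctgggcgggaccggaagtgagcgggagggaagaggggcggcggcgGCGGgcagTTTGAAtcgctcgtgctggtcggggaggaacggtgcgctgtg

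In the next 4, capitals mark CHR and CCAAT letters on either strand, from 100 bases before to 20 bases after the RefSeq start. They are chr7:135716360-135716479 for Mki67, chr11:99024170-99024289 for Top2a, chr9:70421535-70421654 for Ccnb2 and chr9:61946780-61946899 for Kif23, all on the minus strand.
Mki67: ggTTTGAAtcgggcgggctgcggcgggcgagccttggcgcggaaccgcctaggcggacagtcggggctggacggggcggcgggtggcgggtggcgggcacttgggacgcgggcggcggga
Top2a: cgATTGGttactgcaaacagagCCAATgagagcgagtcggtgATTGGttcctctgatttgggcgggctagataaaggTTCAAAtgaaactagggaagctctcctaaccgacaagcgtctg
Ccnb2: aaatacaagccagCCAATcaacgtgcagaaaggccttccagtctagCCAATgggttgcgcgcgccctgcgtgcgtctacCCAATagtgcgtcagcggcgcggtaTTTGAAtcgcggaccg
Kif23: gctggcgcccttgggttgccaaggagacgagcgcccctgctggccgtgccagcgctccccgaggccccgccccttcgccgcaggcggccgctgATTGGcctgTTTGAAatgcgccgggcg

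A promoter was found in the RefSeq table for 38 of the 47 members. Those not found were Smc4, Foxm1, Cdc25c, Ccna2, Incenp, Spc24, Kif20a, Aurkb and Tpx2. Each promoter ran from 250 bases before to 50 bases after the start, and both strands were searched. Some genes had several starts listed, and a gene counted if any of its promoters held the letters. The CHR letters, TTTGAA or TTCGAA, were present in 28 of the 38 (73.7%), against 21.7% of the 27025 genes with a promoter in the same table. The CCAAT letters were also present in 28 (73.7%), against 41.1% of all genes. Both were held together by 25 members (65.8%), against 9.65% of all genes.

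The CHR letters lay close to the start. Of 42 matches in the members, 31 (73.8%) fell within 100 bases before to 50 bases after the start, against 41.4% of the 7260 matches over all genes. A site near several listed starts was counted once for each start, as in Ect2, Bub3 and Prc1, so matches are not all distinct sites. The median match began 10 bases before the start in the members and 125 bases before it over all genes. In Cdc20, the activator of the anaphase promoting complex, the match began 18 bases before the start, and in Racgap1, part of the central spindle complex, it began 5 bases after it. CCAAT matches peaked a little farther upstream, with 39.5% of the members holding one that began 75 to 50 bases before the start. Within the narrower window the CHR count was 27 of 38 (71.1%) against 9.87% of all genes.

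**Figure D1:**
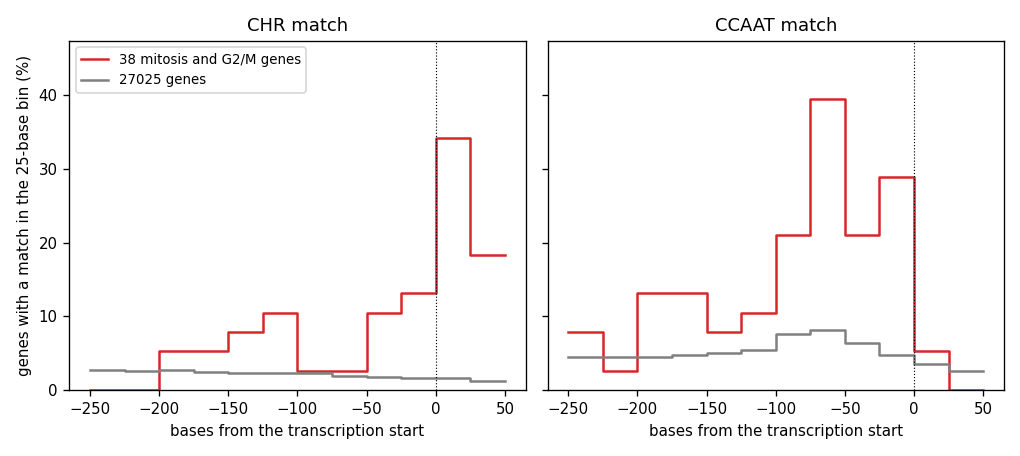
Share of genes (%) with a CHR match (left) or a CCAAT match (right) that begins in each 25-base bin, against the distance in bases from the transcription start, for the 38 members with a promoter (red) and for 27025 genes (grey). The CHR line of the members is highest in the first 25 bases after the start, at 34.2% against 1.68% of all genes, and the CCAAT line between 75 and 50 bases before it, at 39.5% against 8.21%.

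The tandem of GCGG and TTTGAA occurred in Cdk1 and Cenpf, which were 2 of 38 members (5.26%), against 0.0851% of all genes (23 genes). The E2F letters (TTTGGCGC, TTTCGCGC, TTCCCGCC or TTGGCGCC) were present in Cdk1 and Ccnb1 (5.26% of the members), against 4.05% of all genes. The first and the last of these E2F strings can overlap, and the tandem contains a CHR match. Other forms of the E2F site were not searched, so a member without these strings may still hold such a site. Ccnb1, which encodes cyclin B1, held CCAAT and E2F letters and no CHR letters in this window. No CHR, CCAAT or E2F letters were found in 7 members, Plk4, Mad2l1, Nuf2, Birc5, Nusap1, Pttg1 and Mybl2, or 18.4% of the 38 against 45.1% of all genes. The matches are letters in a reference sequence, and binding was not measured.

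In these kidneys the members were nearly all detected, at modest levels. At or above 1 CPM were 46 of the 47 (97.9%), against 55.9% of all genes with a symbol. The exception was Cdc25c, a phosphatase that activates CDK1, at 0.649 CPM. The median member stood at 2.32 log2 CPM, or 4.98 CPM, and the median gene at 1.24 log2 CPM, or 2.36 CPM. All genes with a symbol were not limited to those with a RefSeq mRNA, which every member has. With RefSeq mRNAs alone the median gene stood at 1.95 log2 CPM and the median member at 2.32. The share at or above 1 CPM was not taken for such genes alone. Among genes at or above 1 CPM alone, the members' median percentile was 24.4, below the middle of the expressed genes. By CPM the 5 highest members were Kif23 (53.5), Mki67 (41.0), Smc4 (26.9), Spc25 (21.6) and Top2a (18.8). The level of Kif23 is that of an assembled transcript, and by its RefSeq mRNA it would be at 7.87 CPM, not among the 5 highest. The 5 lowest members were Cdc25c, Mybl2 (1.35), Cenpk (1.42), Ttk (1.51) and Kif2c (1.53).

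Long transcripts collect more reads, so levels of different genes are compared below as CPM per kilobase of the highest RefSeq transcript, with its length taken from GENCODE. On that scale the members' median was 1.39, against 0.919 over 22662 genes, and 36 of 47 members lay above the median of all genes. Against the 12736 genes at or above 1 CPM, whose median was 4.0, 7 of 47 members lay above the median. There were 14 members under 1, 16 from 1 to 2, and 17 at 2 or more. From Spc25 at 14.2 to Cdc25c at 0.334 the range was 42.5-fold. The choice of RefSeq transcript matters for this order. Of 13 members with several RefSeq mRNAs, the level per kilobase differed between them by over 1.5-fold in Birc5 and Pttg1 and by at most 1.25-fold in the others. By its shorter mRNA Pttg1 would be at 16.6, above Spc25 at up to 15.9. Since no spread between kidneys is given, neighbours in this order could not be told apart.

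**Figure D2:**
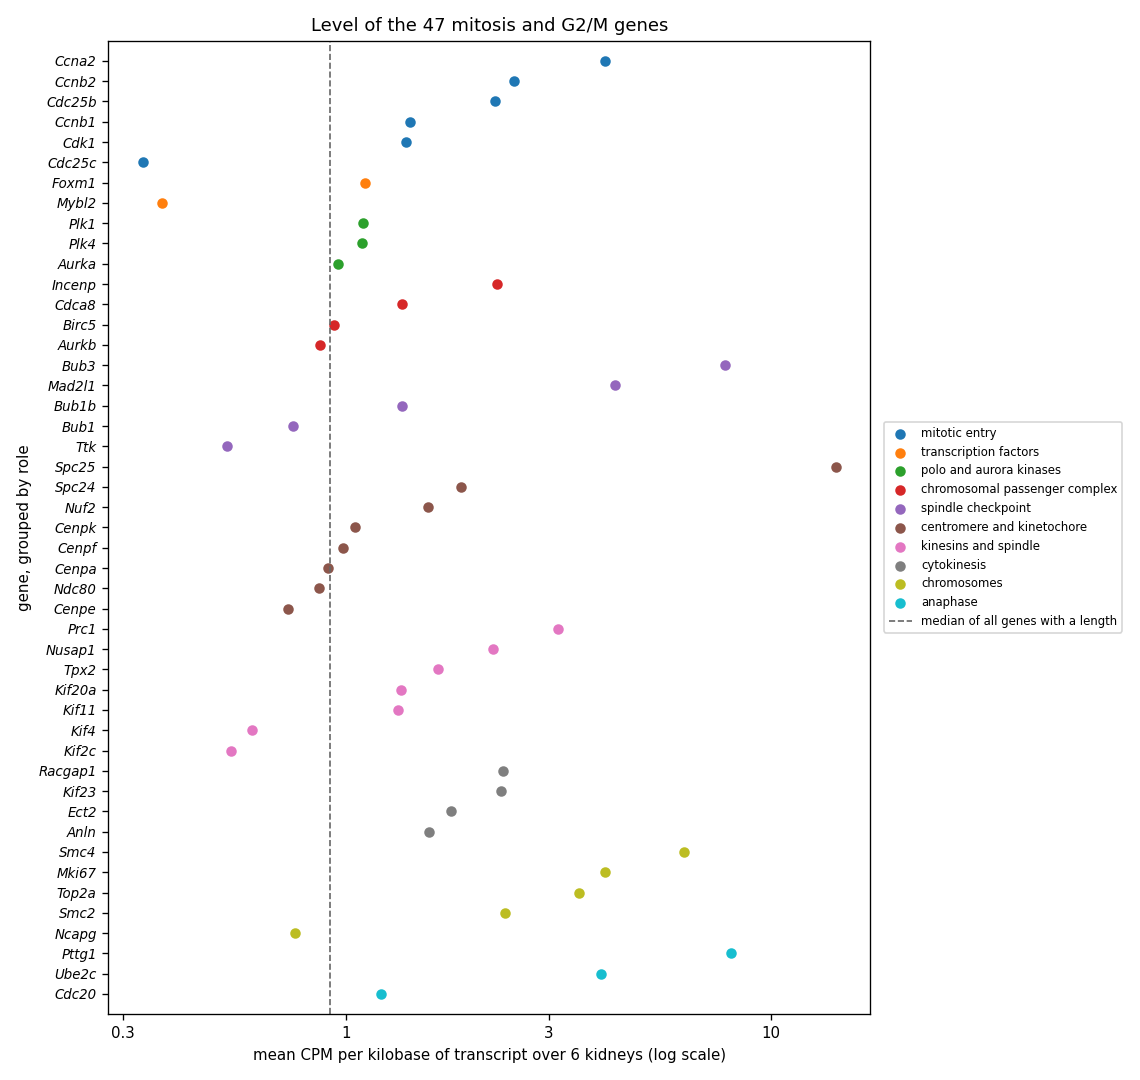
Mean level of the 47 members in CPM per kilobase over 6 kidneys (log scale), 1 point a gene, coloured and grouped by role, with no error since the table gives none. The dashed line is the median of all genes, 0.919, and Spc25 at 14.2 and Cdc25c at 0.334 are the ends.

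Among the genes of mitotic entry, the cyclins were unequal. Ccna2, cyclin A2, which acts in S phase and early mitosis, stood at 4.08 CPM per kilobase, 2.87-fold above Ccnb1 at 1.42. Ccnb2, the other B-type cyclin listed, stood at 2.49, or 1.75-fold above Ccnb1. Cdk1, their kinase partner, was at 1.39 and nearly level with Ccnb1 (ratio 0.976). Of the phosphatases that remove the brake on CDK1, Cdc25b was at 2.25, 6.74-fold above Cdc25c. Of the transcription factors, Foxm1 stood at 1.11 (5.16 CPM) and Mybl2, which encodes B-MYB, at 0.37, a ratio of 3.0.

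The mitotic kinases outside the checkpoint lay close together. Plk1, which drives centrosome maturation and chromosome segregation, was at 1.10 CPM per kilobase (2.42 CPM), Plk4, which starts centriole duplication, at 1.09, and Aurka, the spindle pole kinase, at 0.961. In the chromosomal passenger complex, which corrects faulty attachments, the kinase Aurkb was at 0.872 (1.70 CPM), Birc5, which encodes survivin, at 0.937 (3.12 CPM over 3334 bases), and Cdca8, which encodes borealin, at 1.36. Incenp, the scaffold of that complex, was at 2.27, or 2.61-fold above Aurkb. By its shorter RefSeq mRNA (2.57 CPM over 947 bases) Birc5 would be at 2.71, above Incenp, so the order of these genes depends on the transcript.

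The spindle checkpoint and the kinetochore had the widest ranges. Bub3, a WD repeat protein that brings BUB1 and BUBR1 to kinetochores, was at 7.79 CPM per kilobase and Mad2l1, the checkpoint protein that blocks CDC20, at 4.29. Bub1b, which encodes BUBR1, was at 1.36 (4.98 CPM), Bub1 at 0.753 and the kinase Ttk at 0.526, so that Bub3 was 14.8-fold above Ttk. The NDC80 complex couples kinetochores to microtubules with 4 subunits in equal number, and its transcripts were far from equal. Spc25 was 7.55-fold above Spc24 (1.87), 9.09-fold above Nuf2 (1.56) and 16.3-fold above Ndc80 (0.867).

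The RefSeq transcripts of Spc25 had 21.6, 21.5 and 18.8 CPM, and its assembled transcript, built from the reads, had 11.8 CPM. Reads shared by these transcripts can be counted for each, so the values are not independent support for the level. No other annotated exon overlapped those of Spc25 in GENCODE on either strand. Among the centromere genes, Cenpf, a large kinetochore protein, was at 0.985 CPM per kilobase, Cenpa, the histone H3 variant of centromeres, at 0.909, Cenpk at 1.05 and Cenpe, a kinetochore motor, at 0.733.

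Kinesins and spindle genes ran from 0.538 CPM per kilobase for Kif2c, a microtubule depolymerase, and 0.602 for Kif4, a chromosome-bound motor, to 3.15 for Prc1, which bundles microtubules in the central spindle. Between them stood Kif11, the motor that separates spindle poles, at 1.33, Kif20a at 1.35, Tpx2, the activator of Aurora A, at 1.65 and Nusap1, a microtubule-binding protein, at 2.22. The 4 cytokinesis genes had a narrow range, 1.49-fold from Anln at 1.57 through Ect2 at 1.77 to Racgap1 at 2.34. Kif23 and Racgap1, the motor and the GTPase activating protein of 1 complex, were nearly level on their RefSeq transcripts (ratio 0.989).

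Chromosome and anaphase genes were the higher groups, with medians of 3.54 and 3.99 CPM per kilobase. Mki67, the proliferation antigen Ki-67, was at 4.08 (41.0 CPM over a transcript of 10061 bases) and Top2a, the topoisomerase that untangles chromatids, at 3.54. In condensin, the ring subunits Smc4 and Smc2 were at 6.23 and 2.37 and the regulatory subunit Ncapg at 0.76, which was 8.2-fold under Smc4. Smc2 and Smc4 also serve the other form of condensin, which lacks Ncapg. Pttg1, which encodes securin, was at 8.06, or 16.6 by its shorter RefSeq mRNA, and Ube2c, the conjugating enzyme of the anaphase promoting complex, at 3.99, while Cdc20 was at 1.21.

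The symbol alone hid a large difference within Kif23. The table listed 93 transcripts for the members, of which 67 were RefSeq mRNAs, 2 RefSeq non-coding RNAs and 24 assembled from the reads. For Kif23 there were 6, and the transcript that stood for it was an assembled one at 53.5 CPM, 6.77-fold above the next. The remaining 5, the RefSeq mRNA among them, lay between 7.43 and 7.89 CPM. By its RefSeq mRNA, Kif23 would be at 7.87 CPM and not the highest member. Whether the extra reads of the assembled transcript come from Kif23 was not tested.

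Of 24 members with more than 1 transcript, 12 had a spread under 0.1 on the log2 scale, and Kif23, Cenpe and Nusap1 had a spread of 1 or more. Transcripts with shared exons can count the same reads, so a small spread does not show that a gene's transcripts are equally abundant. In Cenpe an assembled transcript stood at 0.663 CPM beside 5.80 for the RefSeq mRNA. In Nusap1 an assembled transcript stood at 0.128 CPM beside 6.56 and 6.24 for the RefSeq mRNAs. An assembled transcript stood for 7 members, and in all of them but Kif23 and Cenpa the RefSeq level was within 0.02 log2 of it.

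**Figure D3:**
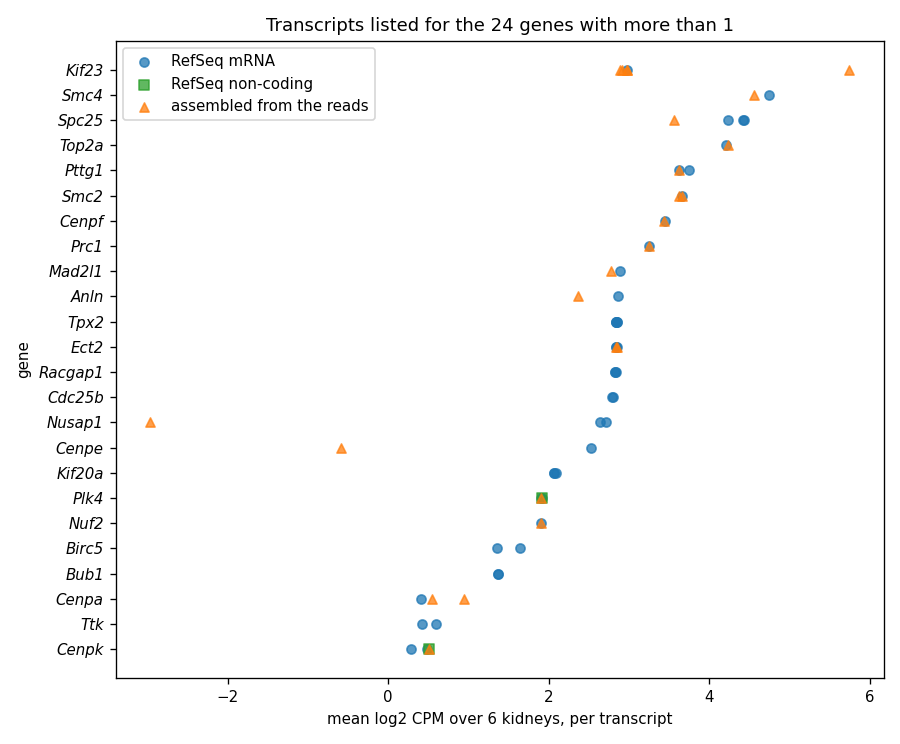
Average level over 6 kidneys, as log2 CPM, for each transcript of the 24 members with more than 1, by kind of transcript (blue circles RefSeq mRNA, green squares RefSeq non-coding, orange triangles assembled). Kif23 has an assembled transcript at 5.74 far to the right of its others, and Nusap1 and Cenpe have one far to the left, at -2.96 and -0.59.

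Reads from overlapping genes could enter some of these levels. GENCODE lists an antisense exon overlap for 13 members, among them Ccna2 (with Exosc9), Prc1 (with Rccd1), Ube2c (with Tnnc2) and Kif20a (with Cdc23). The libraries were stranded, but the strand setting of the counting is not given in the sources used here. On the same strand, Top2a shared 1.35% and Foxm1 2.5% of their exon bases with other genes.

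Other division genes are given as lists, with the same scale. The median of 39 other mitosis genes was 0.784 CPM per kilobase, from Espl1, the protease separase, at 0.201 to Rad21, a subunit of cohesin, which also works outside mitosis, at 29.9. The 46 genes of DNA replication and G1/S had a median of 2.16, with Orc1, part of the origin recognition complex, at 0.166 and Pcna, the replication clamp, at 22.0. The 17 entry brakes and DREAM genes had a median of 5.35, from the CDK1-inhibiting kinase Pkmyt1 at 0.456 to the chaperone subunit Rbbp4 at 13.8. The 16 subunits and partners of the anaphase promoting complex, many of them also used by resting cells, had a median of 6.54. By median the members lay above the other mitosis genes and below the other 3 lists, and these medians are descriptions with no test.

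**Figure D4:**
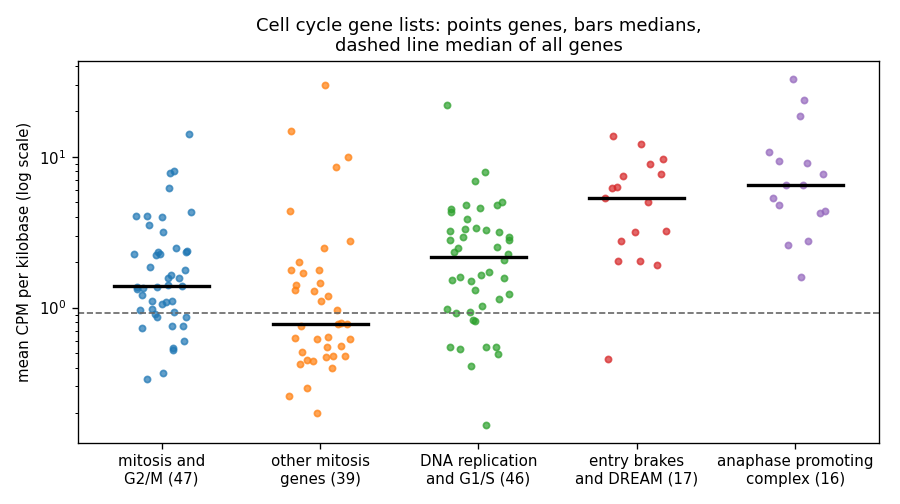
Mean CPM per kilobase over 6 kidneys (log scale) for the members and 4 other lists of cell cycle genes, 1 point a gene, with the median as a black bar and the median of all genes, 0.919, as a dashed line. The ranges overlap, and the medians run from 0.784 for the other mitosis genes to 6.54 for the anaphase promoting complex.

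The kidney label matched its markers. All 10 tubule and podocyte markers were above 1 CPM, with a median of 39.8 CPM per kilobase, from Nphs1 of podocytes at 2.22 to Slc34a1 of the proximal tubule at 423. Other cells were present too. The endothelial markers Pecam1 and Cdh5 were at 52.7 and 44.2 CPM, the fibroblast markers Col1a1 and Pdgfrb at 128 and 44.8 CPM, and the macrophage markers Csf1r and Cd68 (2 of 3 listed were found by symbol) at 25.3 and 5.19 CPM. The lymphocyte markers Cd79a and Cd3e were at 0.311 and 0.16 CPM. The haemoglobin gene Hbb-b1 was at 52.6 CPM. Which cells held the mitotic transcripts was not measured, and in whole kidney a change in dividing cells and a change in RNA per cell cannot be told apart.

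The deleted cluster lies on chromosome 14, and its mature microRNAs on GRCm38.p6 are shown with the seed, bases 2 to 8, in capitals, because a match to the seed is the usual first sign of a possible target. They fall into 4 seed groups, miR-17 with miR-20a, miR-18a, miR-19a with miR-19b, and miR-92a.
mmu-miR-17-5p: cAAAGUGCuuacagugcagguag
mmu-miR-20a-5p: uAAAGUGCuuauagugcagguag
mmu-miR-18a-5p: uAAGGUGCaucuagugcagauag
mmu-miR-19a-3p: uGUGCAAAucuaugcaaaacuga
mmu-miR-19b-3p: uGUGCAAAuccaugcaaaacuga
mmu-miR-92a-3p: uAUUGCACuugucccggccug

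A 3′-UTR was available for 46 members, all but Cenpk. Of these, 9 (19.6%) held at least 1 seed match of the cluster, against 26.4% of 18791 genes, with a median 3′-UTR of 602 bases in the members and 788 over all genes. The match to miR-17 and miR-20a was present in Kif23, Smc2 and Foxm1 (6.52%, against 11.0% of all genes). The miR-18a match was present in Ccna2, Kif2c, Tpx2, Anln and Racgap1 (10.9% against 7.22%). The miR-19 match was present in Ccna2 and Prc1 (4.35% against 10.1%) and the miR-92a match in Prc1 (2.17% against 5.98%). Longer 3′-UTRs hold more matches by their length, and the part of length in these shares was not tested. Only matches to all of bases 2 to 8 were searched, so a member without one may still hold a site of another form.

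The matches to miR-17 and miR-20a in Kif23 and Foxm1 and that to miR-19 in Prc1 are shown as DNA, with the seed match in capitals. In Kif23 it covers bases 222 to 228 of a 3′-UTR of 384, in Foxm1 bases 405 to 411 of 2180, and in Prc1 bases 857 to 863 of 1074. Positions start at the stop codon, which these lengths include.
Kif23: caaaaaaaaatGCACTTTagacatattta
Foxm1: gggacggggttGCACTTTgcttctgcttg
Prc1: gagtcagcaacTTTGCACatctacaagtt

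Of the 11 matches in the members, those of Kif23 and Prc1 printed above were the ones followed by an A, the form in which sites are more often effective. A seed match is a description of the letters, and neither microRNA binding nor a change of these transcripts is measured by it.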

How the data were processed

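Total RNA of 6 whole kidneys (SKO 3, DKO 3) was sequenced with a stranded total RNA kit. Per the labels and the study's methods, the authors aligned reads to mm10 with TopHat2 2.0.12, assembled transcripts with Cufflinks, counted with featureCounts (Subread 1.4.6) and compared genotypes with edgeR 3.2.4, after bcl2fastq 1.8.4. The deposited table of 54721 transcripts gives the authors' average level over all kidneys, as log2 CPM. How the kidneys were averaged is not stated in the sources used here, so it need not be the mean of log2 values. To this level edgeR, as the authors ran it, adds a small prior count, so low levels may be overstated. Its other 4 columns hold the authors' own comparison (log fold change, likelihood ratio, p-value and false discovery rate) and were not used. The planned count test was not run because no count per kidney was used here.

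The symbol was read from the transcript name, which left out 9317 transcripts with none, and the highest transcript was kept per gene. The members and lists were chosen with earlier results of these data known. CPM is 2 to the power of the deposited log2 value. Lengths, coordinates, overlaps and 3′-UTRs are from GENCODE on GRCm38, which is mm10, matched by RefSeq identifier, and the longest match was used. The length of Cenpk is that of a RefSeq non-coding transcript. Each 3′-UTR opened with the stop codon, which its length includes. Promoters and microRNAs are from RefSeq. Exact letters were searched, and the search was tested on simulated sequences. Genes given in full were the 5 highest and 5 lowest members by log2 CPM and Mki67, Top2a, Cdk1, Ccnb1, Ccnb2, Plk1, Aurkb, Bub1b, Birc5 and Foxm1. Other members were named by role, and other genes as the ends of lists. Alternatives were the transcript kept, the minimum CPM, the length, the promoter window and strand, and the seed match. Python 3.11.15, pandas 2.3.3, numpy 2.4.6 and matplotlib 3.10.9 were used. 1 listed marker is not reported here.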

Additional observations from a re-analysis of the deposited data

How the results depend on the processing

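No paired analysis was possible because no result comes from a test between groups. The DESeq2 fit, the fit with no filter and the fits leaving out each kidney were not run, as no count per kidney was used. The members' median of 2.32 log2 CPM was 2.68 with transcripts summed, which counts shared reads repeatedly, 2.07 with the median over transcripts and 2.2 without Kif23, while over all genes the median was 1.77 summed and 1.08 by the median over transcripts. With RefSeq mRNAs alone it was 2.32 in the members and 1.95 over all genes, so the gap between them was narrower. The members' median percentile was 57.5 among all genes, 24.4 among genes at or above 1 CPM, and 54.4 per kilobase with the longest or with the shortest matched length. At or above 0.5 and 2 CPM were 47 and 38 members. Summing moved 23 of the 47 members by over 1.5-fold, up to 2.32 log2 in Tpx2 (7.19 to 35.9 CPM). With the RefSeq mRNA of highest level per kilobase, the members' median per kilobase was 1.42 and their range 49.7-fold. The E2F count of 2 fell to 0 near the start and 1 on the forward strand. Requiring an A after the seed match left 1 member for miR-17/20a, 0 for miR-18a, 1 for miR-19 and 0 for miR-92a. The CHR count was 27 near the start and 21 on the forward strand, the CCAAT count 24 and 19, and the tandem count 2 in both. The seed search, the shortest length, the RefSeq mRNA of highest level per kilobase and leaving out Kif23 were chosen after seeing the data. Without values per kidney, the precision of every level is unknown.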
